A study of Mus musculus with 7 samples.

Results

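The genes described here are the 6 mitochondrially encoded subunits of respiratory complexes III, IV and V: mt-Cytb, mt-Co1, mt-Co2, mt-Co3, mt-Atp6 and mt-Atp8. They were taken by gene symbol from a count table of 21861 rows, and all 6 were found and passed the expression filter. The table came from retinal pigment epithelium (RPE) of aged mice, the pigmented layer that supports the photoreceptors. Of 7 RNA-seq libraries, 3 came from mice given an adeno-associated virus (AAV) carrying GFP and 4 from mice given an AAV carrying GSTA4, a glutathione transferase that conjugates lipid aldehydes, and both groups were collected 12 weeks after treatment. Every library therefore comes from a virus-treated old mouse, and no untreated or young group was analysed here. The labels give no strain, sex, exact age or vector promoter, and they do not say whether a library is 1 animal, so p-values measure only the spread between these libraries.

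Mitochondrial DNA encodes 13 proteins of oxidative phosphorylation, and the nucleus encodes the remaining subunits. The mitochondrial mRNAs are cut out of long transcripts that cover nearly the whole circular genome, so their levels also depend on processing and stability. Cytochrome b is the only mitochondrially encoded part of complex III, which passes electrons from ubiquinol to cytochrome c. COX1, COX2 and COX3 form the catalytic core of complex IV, which reduces oxygen to water, and ATP6 and ATP8 belong to the membrane part of complex V, the ATP synthase. The RPE is a highly oxidative epithelium, and mitochondrial decline in it is widely studied in retinal ageing.

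The 6 genes lie on the plus strand of the mitochondrial genome as single uninterrupted exons (GENCODE M21 annotation of GRCm38, the mouse build in the submitters' processing notes). mt-Co1 spans chrM:5328-6872, mt-Co2 chrM:7013-7696, mt-Atp8 chrM:7766-7969, mt-Atp6 chrM:7927-8607, mt-Co3 chrM:8607-9390 and mt-Cytb chrM:14145-15288. Both ATP synthase genes are read from 1 mRNA and overlap by 43 bases, which are shown in capitals because reads confined to them cannot be given to 1 gene by sequence:
mt-Atp8 (whole gene, chrM:7766-7969): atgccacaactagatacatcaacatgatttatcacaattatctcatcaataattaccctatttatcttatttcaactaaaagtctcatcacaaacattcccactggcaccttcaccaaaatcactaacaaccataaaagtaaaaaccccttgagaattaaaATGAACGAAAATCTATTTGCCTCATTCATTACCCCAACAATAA
mt-Atp6 (first 60 bases, chrM:7927-7986): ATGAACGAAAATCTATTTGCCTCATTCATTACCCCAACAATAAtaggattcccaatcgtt
The capitals are the end of mt-Atp8 and the start of mt-Atp6. mt-Atp6 runs in turn into mt-Co3 with 1 shared base, in capitals here:
mt-Atp6 to mt-Co3 (chrM:8578-8637): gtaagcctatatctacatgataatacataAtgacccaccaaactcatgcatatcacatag

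A second feature of these sequences bears on several of the counts below: part of the mitochondrial genome has an annotated copy in the nuclear genome. Each coding sequence was compared with all annotated transcripts from other chromosomes. On chromosome 1, pseudogenes that matched the mitochondrial gene at every base of their own length were found for mt-Co2 (Gm28661, 681 bases), mt-Atp6 (Gm10925, 678 bases) and mt-Co3 (Gm28437, 783 bases). mt-Co1 matched the chromosome 1 pseudogene Gm29216 over its last 492 bases with 6 differences, and a chromosome 2 pseudogene, Gm13340, over all 1545 bases with 37 differences. The start of Gm10925 is shown with capitals where it equals mt-Atp6, which is at all 60 bases, followed by the edge of the mt-Co1 copy, with capitals at the bases that differ:
Gm10925 (first 60 bases, chr1:24614592-24614651, minus strand): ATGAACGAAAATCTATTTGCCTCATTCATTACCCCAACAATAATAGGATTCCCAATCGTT
mt-Co1 (chrM:6381-6440): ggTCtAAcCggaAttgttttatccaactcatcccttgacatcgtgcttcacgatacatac
Gm29216 (first 60 bases, chr1:24616138-24616197, minus strand): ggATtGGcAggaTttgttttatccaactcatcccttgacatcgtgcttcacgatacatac
All differences between mt-Co1 and Gm29216 fall in these first bases, at T1056A, C1057T, A1059G, A1060G, C1062A and A1066T, counted from the first base of mt-Co1 with the mt-Co1 base first. No copy of mt-Atp8 is annotated, apart from its last 43 bases, which it shares with mt-Atp6 and which also start Gm10925. The pseudogenes Gm28661 and Gm10925 are however separated by 233 bases on chromosome 1, the same distance as between the matching parts of mt-Co2 and mt-Atp6, and mt-Atp8 begins within that stretch. mt-Cytb shared no 50-base window with any transcript from another chromosome.

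Levels differed greatly between the 6 genes. Counts were scaled by library size to CPM, the usual per-library count scale, with TMM factors that correct for composition, and divided by gene length. mt-Cytb was the most abundant of all 13 mitochondrial mRNAs in this table, with a median over the 7 libraries of 8213 CPM per kb and a range of 4374 to 12963. mt-Co1 had a median of 4275 CPM per kb (1845 to 7046). The other 4 genes were far lower per length. mt-Co3 had a median of 202 CPM per kb (127 to 327), mt-Atp6 of 167 (115 to 296), mt-Co2 of 69.5 (58.0 to 149) and mt-Atp8 of 24.8 (15.2 to 53.2). The order mt-Cytb, mt-Co1, mt-Co3, mt-Atp6, mt-Co2, mt-Atp8 held inside each of the 7 libraries. Its closest neighbours were mt-Co3 and mt-Atp6, whose ratio per length was 1.05 to 1.43 within libraries, whereas mt-Co1 was 14.5 to 21.6 times mt-Co3.

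**Figure D1:**
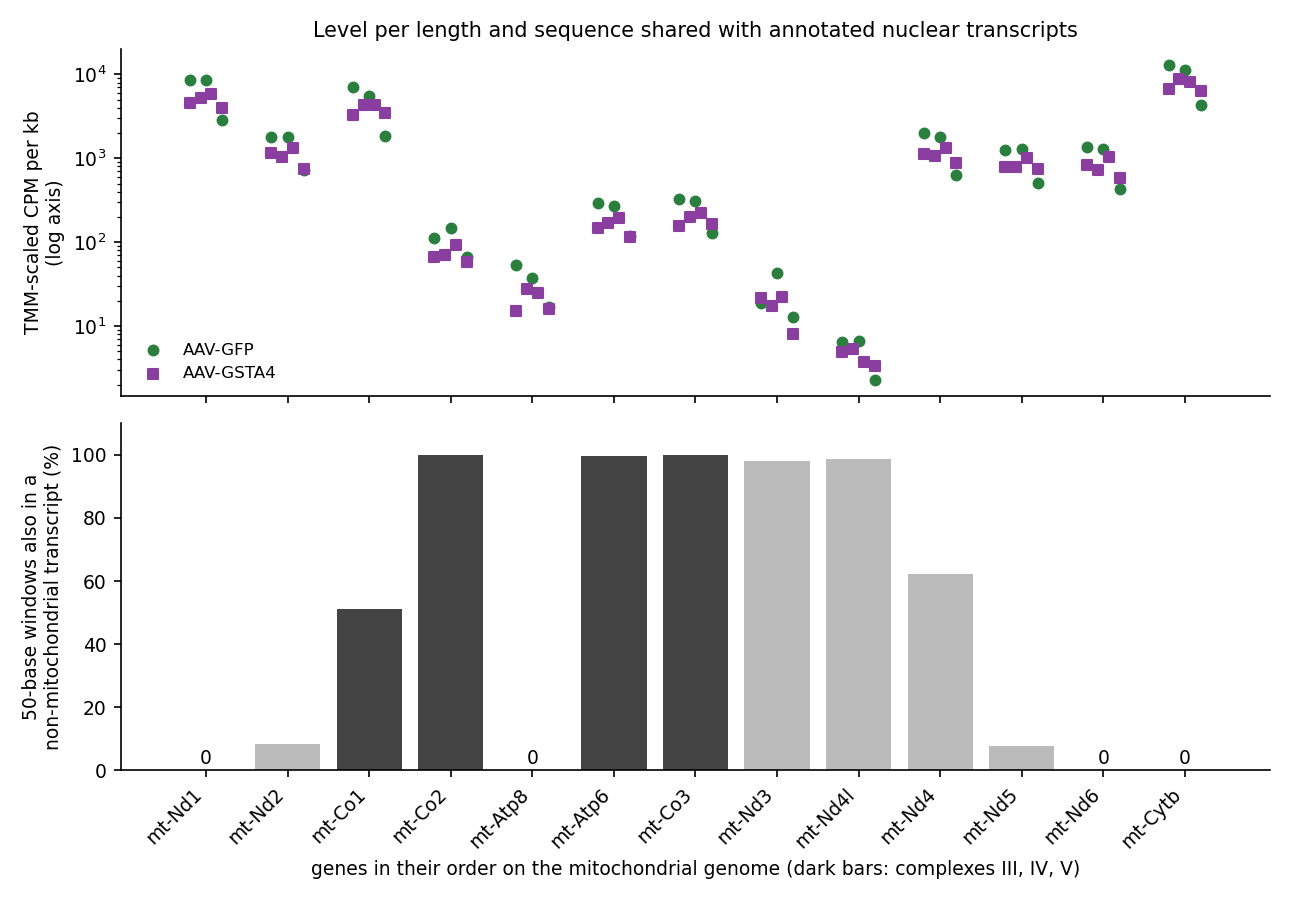
TMM-scaled CPM per kb of the 13 mitochondrially encoded genes in each library (upper panel, log axis, circles AAV-GFP and squares AAV-GSTA4) above the percentage of each gene's 50-base windows that also occur in an annotated transcript of another chromosome (lower panel). Genes with nearly all windows shared, such as mt-Co2 at 100%, sit far below mt-Cytb, which shares 0%. mt-Atp8 is low with 0%, and no copy of it is annotated apart from its last 43 bases. Those bases also start Gm10925 but are fewer than a 50-base window.

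Low levels per length coincided with the stretch copied on chromosome 1, though not for every gene. Of all 50-base windows, 100% were found elsewhere for mt-Co2, 99.9% for mt-Co3 and 99.5% for mt-Atp6, against 51.1% for mt-Co1 and 0% for mt-Cytb. The complex I genes inside the same stretch, mt-Nd3 (98.0% of windows) and mt-Nd4l (98.8%), had medians of 19.0 and 4.96 CPM per kb, while mt-Nd4, with 62.2% of windows, had 1127. The complex I genes outside it, mt-Nd1, mt-Nd2, mt-Nd5 and mt-Nd6, had at most 8.19% of windows elsewhere and medians of 792 to 5217 CPM per kb. How reads that fit both places were counted is not given in the sources used here, and the part of the copies in these levels was not tested. mt-Atp8 and mt-Nd4l are also the shortest genes, at 204 and 297 bases, and 43 of the bases of mt-Atp8 are shared with mt-Atp6. The counts of mt-Co2, mt-Co3, mt-Atp6 and mt-Atp8 are therefore uncertain as levels, and comparisons of 1 gene between libraries rest on the reads that remained.

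All 6 genes had lower mean levels in AAV-GSTA4 than in AAV-GFP, by 0.33 to 0.78 on the log2 scale, but none passed the test, and the groups overlapped for every one of them. No gene reached an adjusted p under 0.05 among the 15075 tested (0% called; smallest adjusted p 0.363, edgeR's quasi-likelihood test). At an unadjusted p under 0.05, 0 of the 6 genes were found, against 11.9% of all genes (6.63% on the lower and 5.27% on the higher side). Groups whose CPM did not overlap were found for 12% of all genes, 5.61% on the lower side. For 55.4% of all genes the fold change was below 0. The median log2 fold change was -0.50 over the 6 genes and -0.07 over all genes.

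mt-Cytb, the complex III gene, had 14830, 13062 and 5004 CPM in AAV-GFP replicates 1, 2 and 3 and 7681, 10157, 9396 and 7176 CPM in AAV-GSTA4 replicates 1 to 4. On this TMM-scaled CPM, AAV-GFP replicates 1 and 2 were above all AAV-GSTA4 libraries, and AAV-GFP replicate 3 was below all of them. AAV-GFP libraries averaged 10965 CPM ± 5238 (SD, n = 3), and AAV-GSTA4 libraries 8603 CPM ± 1406 (SD, n = 4). In edgeR's test this gave a log2 fold change of -0.35 ± 0.41 (SE; adjusted p = 0.761).

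Among the complex IV genes, mt-Co1, which encodes the subunit that holds the oxygen-reducing centre, had 10886, 8571 and 2851 CPM in AAV-GFP and 5070, 6609, 6605 and 5325 CPM in AAV-GSTA4. The pattern was that of mt-Cytb, with AAV-GFP on both sides of a narrow AAV-GSTA4 range. edgeR put the difference at -0.33 ± 0.44 (log2, SE; adjusted p = 0.786). mt-Co2, whose product carries the copper site that receives electrons from cytochrome c, had 77.6, 102 and 45.5 CPM in AAV-GFP and 45.5, 47.6, 63.1 and 39.7 CPM in AAV-GSTA4. Here AAV-GFP replicate 3 lay within the AAV-GSTA4 range. For mt-Co2 edgeR gave -0.61 ± 0.29 (log2, SE), with the smallest p of the 6 (unadjusted p = 0.0605, adjusted p = 0.434). mt-Co3, the third core subunit, had 256, 246 and 99.8 CPM in AAV-GFP and 122, 158, 173 and 129 CPM in AAV-GSTA4. AAV-GFP replicate 3 was again the lowest library. edgeR put the difference at -0.46 ± 0.33 (log2, SE; adjusted p = 0.588).

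Of the complex V genes, mt-Atp6, which encodes the subunit that forms the proton path beside the rotor, had 201, 183 and 81.1 CPM in AAV-GFP and 101, 114, 133 and 78.3 CPM in AAV-GSTA4. AAV-GFP replicate 3 and AAV-GSTA4 replicate 4 were the lowest libraries. edgeR put the difference at -0.54 ± 0.33 (log2, SE; adjusted p = 0.523). mt-Atp8, a small membrane subunit of the stator side, had only 233, 197 and 72 counts in AAV-GFP and 59, 116, 86 and 88 counts in AAV-GSTA4. These correspond to 10.9, 7.61 and 3.46 CPM and to 3.10, 5.57, 5.05 and 3.25 CPM. Its value was the most negative of the 6 and had the widest error, -0.78 ± 0.46 (log2, SE; adjusted p = 0.515 in edgeR).

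**Figure D2:**
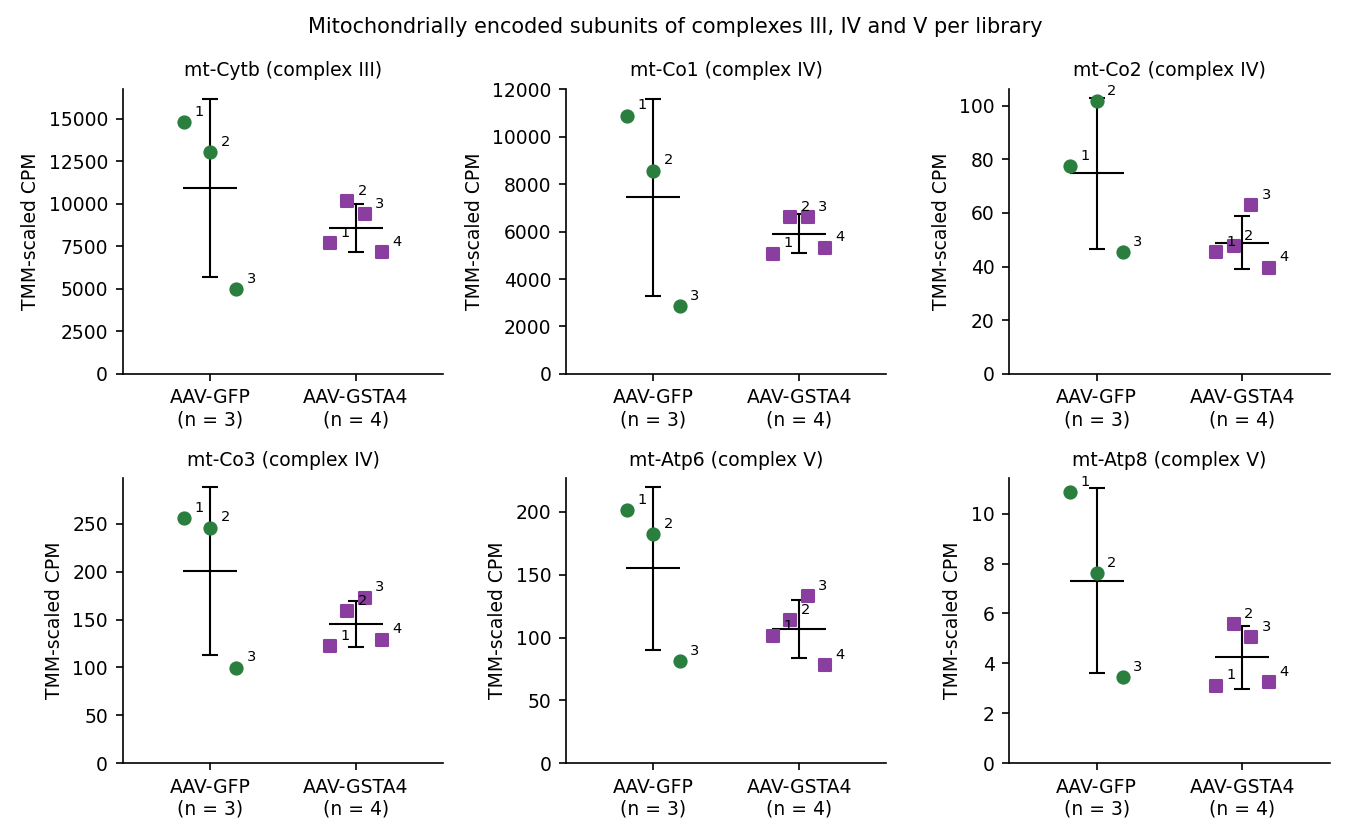
TMM-scaled CPM of the 6 genes in each library, numbered by replicate, with the mean and SD of each group in black. AAV-GFP replicates 1 and 2 are the upper points and AAV-GFP replicate 3 a low point in each panel, so that the groups overlap for every gene, for example 5004 to 14830 CPM against 7176 to 10157 CPM for mt-Cytb.

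The comparison therefore turned on single AAV-GFP libraries. AAV-GFP replicate 3 also stood apart over all genes, its log2 CPM values correlating with the remaining libraries at 0.838 on average, against 0.910 to 0.926 for each of those. Without it, the log2 fold changes of the 6 genes ran from -1.11 to -0.69, and all 6 had an unadjusted p under 0.05, where 12.5% of 15337 genes did. Their adjusted p-values were then 0.313 to 0.341 in edgeR's test, and 0 of the 6 passed. In limma-voom with quality weights, 5 of the 6 had an unadjusted p under 0.05, where 21.8% of all genes did. Without AAV-GFP replicate 1, by contrast, the values ran from -0.59 to 0.05, with mt-Co1 on the higher side, and without AAV-GFP replicate 2 from -0.75 to -0.20. As these 3 fits leave 2 AAV-GFP libraries each, the size of the difference was set by which of them were kept.

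**Figure D3:**
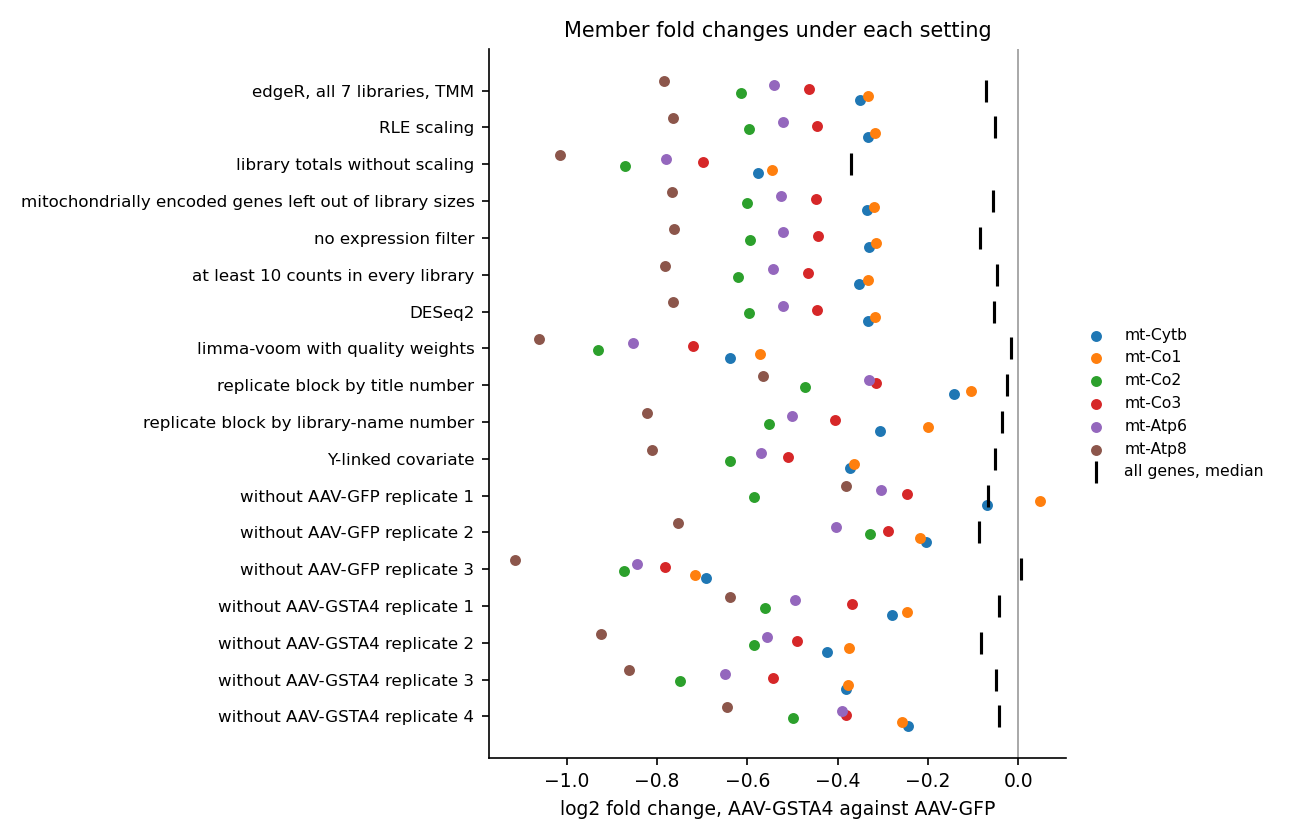
Log2 fold change (AAV-GSTA4 against AAV-GFP) of the 6 genes under each processing setting, with the median of all genes tested as a black tick. All gene points lie below 0 except mt-Co1 without AAV-GFP replicate 1, at 0.05, and the lowest values, for mt-Atp8, occur without AAV-GFP replicate 3 (-1.11) and in limma-voom with quality weights (-1.06).

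As a share of all counts, the 6 genes took 2.59%, 2.32% and 1.10% of AAV-GFP replicates 1 to 3 and 1.26%, 1.54%, 1.42% and 1.19% of AAV-GSTA4 replicates 1 to 4. The 95% Wilson interval was at most 0.00669 percentage points to either side, which covers counting error only. AAV-GFP replicate 3 had the lowest summed share of the 7 libraries on this scale too. Its TMM factor was 1.36, against 0.868 to 1.05 elsewhere, which lowers its CPM relative to its share. By share, only mt-Co1 was lowest in it (0.387%). Its mt-Cytb share of 0.680% was above the 0.671% of AAV-GSTA4 replicate 4. Its mt-Co3 share (0.0136%) was above that of AAV-GSTA4 replicate 1 (0.0118%), and its mt-Atp6 share (0.0110%) above that of replicate 4 (0.00731%). Average shares were 2.01% ± 0.797 (SD, n = 3) in AAV-GFP libraries and 1.35% ± 0.160 (SD, n = 4) in AAV-GSTA4 libraries, so the difference of -0.652 percentage points was smaller than the spread of the AAV-GFP libraries. Relative to the library total, mt-Co2 was the only 1 of the 6 whose groups did not overlap, with 0.00618% to 0.0106% in AAV-GFP and 0.00371% to 0.00547% in AAV-GSTA4. On that scale 14% of all genes did not overlap, 12% of all genes on the lower side.

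Markers of other cells differed between the same libraries. All 14 RPE markers, among them Rpe65, had counts in every library, with a summed level of 23881 to 72146 CPM in AAV-GFP and 62852 to 111171 CPM in AAV-GSTA4. Of these 14, 11 were higher and 3 lower, with a median log2 fold change of 0.58. An unadjusted p under 0.05 was found for 4 of them, against 11.9% of all genes, and 0 were called. Without AAV-GFP replicate 3 the median was 0.27, with 10 higher and 4 lower. Rod photoreceptor markers summed to 17992 to 45770 CPM in AAV-GFP and 9367 to 16446 CPM in AAV-GSTA4, with 16 of 16 lower. Of these 16, 15 had an unadjusted p under 0.05, against 11.9% of all genes, and 0 an adjusted one. None of these rod markers was at 0 in any library, and without AAV-GFP replicate 3 all 16 were still lower, with a median of -0.76. In AAV-GFP replicate 3 the rod sum of 45770 CPM was above the RPE sum of 23881 CPM. Within AAV-GFP the summed level of the 6 genes was 26261, 22171 and 8085 CPM in replicates 1 to 3, the reverse of the rod order, although mt-Co2 alone was highest in replicate 2. Within AAV-GSTA4 the rod sums were 16446, 14069, 15442 and 9367 CPM in replicates 1 to 4. The sums of the 6 genes were 13022, 17092, 16376 and 12751 CPM. The order was thus also reversed over replicates 1 to 3, but replicate 4 was lowest for both. AAV-GFP replicate 3 also had 581 CPM on olfactory and vomeronasal receptor genes, taken as not expressed in the eye. The next levels were those of AAV-GSTA4 replicate 2 (127 CPM), replicate 4 (105 CPM), replicate 3 (95.2 CPM) and replicate 1 (42.6 CPM). AAV-GFP replicate 1 followed with 35.8 CPM, and AAV-GFP replicate 2 came last with 26.8 CPM. Receptor levels were thus lowest in the libraries where the 6 genes had their highest sums. Lens markers summed to 134585 CPM in AAV-GSTA4 replicate 2, above its RPE sum of 62852 CPM, and to 3275 to 28388 CPM elsewhere. All 13 lens markers tested were higher in AAV-GSTA4 (median 2.49 on the log2 scale), and 0 were called. Of the 13, 9 had an unadjusted p under 0.05, against 11.9% of all genes. Cryga, Crygd and Lim2 were at 0 in at least 1 library. Without AAV-GSTA4 replicate 2 the lens median was 0.82, with 12 higher, 1 lower and 0 at an unadjusted p under 0.05. In that fit the log2 fold changes of the 6 genes were -0.92 to -0.37. Without AAV-GFP replicate 3 the lens median was 2.13, also with 0 at an unadjusted p under 0.05. Cone markers were lower for 10 of 10, at 449 to 1107 CPM in AAV-GFP and 277 to 487 CPM in AAV-GSTA4, and Cnga3 was at 0 in at least 1 library. Müller glia markers summed to 6352 to 9065 CPM in AAV-GFP and 10101 to 14654 CPM in AAV-GSTA4, with 5 of 9 higher, Rlbp1 being on both this list and the RPE list. Their median log2 fold change was 0.03, with a lowest value of -1.43. Apoe alone averaged 4480 CPM in AAV-GFP and 7609 CPM in AAV-GSTA4, a large part of these sums. Microglia and macrophage markers were lower for 11 of 12, with sums of 1305, 1287 and 665 CPM in AAV-GFP replicates 1 to 3, the order of the 6 genes, and of 974 to 1220 CPM in AAV-GSTA4. Choroid endothelium markers were lower for 9 of 10 (median -0.84), at 39.2 to 179 CPM in AAV-GFP, highest in replicate 3, and 42.7 to 64.6 CPM in AAV-GSTA4. Without AAV-GFP replicate 3, only 4 of these 10 were lower, and their median was 0.18. Striated muscle markers were lower for 10 of 12, with sums of 18.7 to 107 CPM over all libraries and Myh6 and Tnnc2 at 0 in at least 1, and erythrocyte markers were higher for 6 of 6, at 424 to 2472 CPM. Y-linked genes summed to 307 to 465 CPM in AAV-GFP replicate 1 and AAV-GSTA4 replicates 3 and 4 and to at most 2.83 CPM in the other libraries, and with that level as a covariate the 6 log2 fold changes were -0.81 to -0.36. The part of these other rows in the result was not tested, and in bulk tissue fewer mitochondria-rich cells cannot be told apart from less mitochondrial RNA per cell. The vector rows fitted the labels for GSTA4, with hGSTA4 at 0.0386 to 0.140 CPM in AAV-GFP and 2.64 to 251 CPM in AAV-GSTA4. The lowest of these AAV-GSTA4 values was that of replicate 3, with 45 counts. edgeR put hGSTA4 at 10.7 ± 1.77 (log2, SE; adjusted p = 0.363), so even this row was not called with all libraries. The d2EGFP row overlapped, at 4.61 to 153 CPM in AAV-GFP and 0.411 to 8.58 CPM in AAV-GSTA4.

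The levels of the 6 genes varied more than their ratios to each other. Across the 7 libraries the SD of log2 CPM was 0.49 to 0.67 for each gene. The SD of its log2 ratio to the mean of the other 5 genes was 0.07 for mt-Co3, 0.13 for mt-Atp6, 0.15 for mt-Cytb, 0.26 for mt-Co1, 0.27 for mt-Atp8 and 0.29 for mt-Co2. For 5 complex I genes the SD of the ratio to the mean of the 6 was 0.12 (mt-Nd1) to 0.23 (mt-Nd6), and for the scarce mt-Nd4l and mt-Nd3 it was 0.30 and 0.54. These libraries share depth and scaling between genes, so this is a description. All 7 mitochondrially encoded complex I genes were also below 0 in the comparison, with log2 fold changes of -0.52 to -0.23, a median of -0.43 and 0 called. Relative to the complex I genes other than mt-Nd6, the log2 ratio of mt-Cytb was 5.28 ± 0.19 (SD, n = 3) for AAV-GFP libraries and 5.34 ± 0.21 (SD, n = 4) for AAV-GSTA4 libraries. mt-Co2 was at -1.84 ± 0.27 and -2.13 ± 0.17, and mt-Atp8 at -5.25 ± 0.34 and -5.65 ± 0.36. The groups overlapped for each of the 6 ratios.

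Within the summed counts of the 6 genes, mt-Cytb and mt-Co1 together made up 97.2% to 98.1% of every library. The mt-Cytb part was 59.1% ± 2.72 (SD, n = 3) for AAV-GFP libraries and 58.0% ± 1.46 (SD, n = 4) for AAV-GSTA4 libraries. The share of mt-Atp8 was 0.0413%, 0.0343% and 0.0428% in AAV-GFP and 0.0238%, 0.0326%, 0.0309% and 0.0255% in AAV-GSTA4. It was lower in every AAV-GSTA4 library than in every AAV-GFP library, the only 1 of the 6 shares without overlap, where 5.96% of all genes measured against the same sum did not overlap and 0.478% did so on the lower side. That sum was itself lower on average in AAV-GSTA4, which raises other genes relative to it. The 0.478% is therefore small partly because of the scale and does not measure how rare the mt-Atp8 separation is. The nearest libraries were not apart by counting error: the Wilson interval was 0.0298% to 0.0394% for AAV-GFP replicate 2 and 0.0272% to 0.0391% for AAV-GSTA4 replicate 2. mt-Co2 made up 0.295%, 0.458% and 0.563% in AAV-GFP and 0.350%, 0.278%, 0.385% and 0.311% in AAV-GSTA4. Its share was therefore highest in AAV-GFP replicate 3, the library with the lowest summed level, and the groups overlapped.

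**Figure D4:**
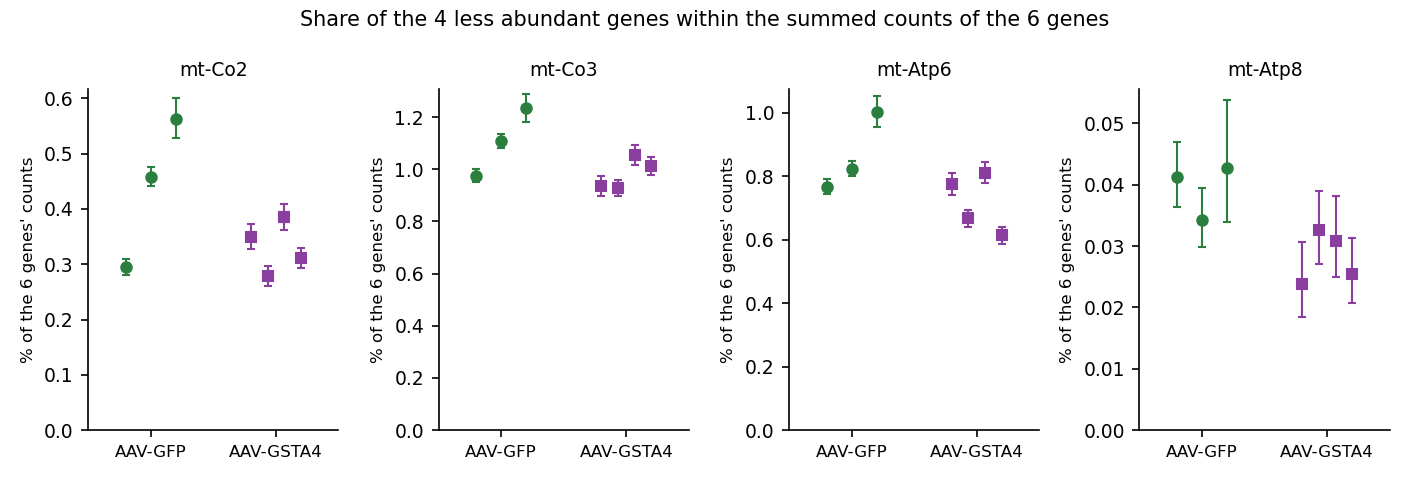
Percentage of the summed counts of the 6 genes that fell on mt-Co2, mt-Co3, mt-Atp6 and mt-Atp8 in each library (circles AAV-GFP, squares AAV-GSTA4), with 95% Wilson intervals that cover counting error only; libraries run from replicate 1 on the left within each group. Only mt-Atp8 separates the groups (0.0343% or more against 0.0326% or less), with intervals that overlap.

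The nuclear-encoded partners were read from the same fit with lists by complex. Of 9 complex III subunits, 6 were above and 3 below 0, with a median log2 fold change of 0.18 and 0 called. Uqcrc1, a core subunit on the matrix side, was at 331 CPM in AAV-GFP and 438 CPM in AAV-GSTA4, a log2 fold change of 0.40 ± 0.23 (SE) with an adjusted p of 0.507 in edgeR's test. Uqcrfs1, the Rieske iron-sulphur protein, was at 0.18 ± 0.24. Of 16 complex IV subunits, 4 were above and 12 below 0, with a median of -0.12 and 0 called. The smallest p-values there belonged to rare isoforms, Cox6a2 at -1.22 ± 0.79 and Cox4i2 at -0.76 ± 0.50, both with adjusted p-values of 0.554 or more in edgeR's test and at most 12.1 CPM in any library. Of 18 complex V subunits, 6 were above and 12 below 0, with a median of -0.02 and 0 called. Atp5g2, 1 of the genes for the rotor ring subunit c, was at -0.22 ± 0.19, and Atpif1, the inhibitor of ATP hydrolysis, at -0.34 ± 0.33. None of these 43 nuclear genes had an unadjusted p under 0.05.

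Assembly factors were also near the median of all genes, at -0.00 for 6 complex III, -0.01 for 19 tested complex IV and -0.07 for 5 complex V factors, and 0 were called. Bcs1l, which inserts the Rieske protein into complex III, was at 11.7, 12.4 and 8.98 CPM in AAV-GFP and 17.3, 21.1, 14.0 and 16.2 CPM in AAV-GSTA4. The groups did not overlap, as for 12% of all genes. edgeR put it at 0.63 ± 0.27 (log2, SE; adjusted p = 0.403). For complex IV, Coa5 was at 0.51 ± 0.23 and Cox15, an enzyme of heme A synthesis, at 0.52 ± 0.23, with adjusted p-values of 0.422 and 0.424 in edgeR's test. For complex V, Atpaf2, a chaperone of the F1 alpha subunit, was at 0.30 ± 0.21 and Fmc1 at -0.37 ± 0.27. Ttc19, a complex III factor, was at -0.28 ± 0.24.

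Genes that copy and transcribe mitochondrial DNA had a median of -0.06, with 12 of 15 below 0. Of these 15 genes, 2 had an unadjusted p under 0.05, against 11.9% of all genes, and 0 were called. Polg2, the accessory subunit of the mitochondrial DNA polymerase, was at 20.1, 28.8 and 55.0 CPM in AAV-GFP and 12.1, 13.8, 17.7 and 14.6 CPM in AAV-GSTA4. No AAV-GSTA4 library reached the AAV-GFP range for Polg2, as for 5.61% of all genes. edgeR put it at -1.25 ± 0.34 (log2, SE; adjusted p = 0.363). Top1mt, the mitochondrial topoisomerase, was at -0.74 ± 0.32, with an adjusted p of 0.402 in the same test. Unlike the 6 mitochondrial genes, Polg2 was highest in AAV-GFP replicate 3. Of 18 genes for mitochondrial RNA processing and stability, 11 were above and 7 below 0, with a median of 0.03 and 0 called. Lrpprc, which stabilises mitochondrial mRNAs, was at -0.45 ± 0.25, and Pde12, which removes their poly(A) tails, at 0.41 ± 0.26. Of 9 regulators of mitochondrial biogenesis, 7 were below 0, with a median of -0.15. At an unadjusted p under 0.05, 3 of the 9 were found, 2 lower and 1 higher, against 11.9% of all genes, and 0 were called. Esrrg, a nuclear receptor that drives oxidative genes, was at -0.99 ± 0.34, with an adjusted p of 0.370 in edgeR's test, and Ppargc1b, a coactivator of such receptors, at -1.22 ± 0.50, with one of 0.395.

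Without AAV-GFP replicate 3, the median was -0.03 for nuclear complex III, -0.41 for complex IV and -0.30 for complex V subunits. It was -0.81 for the 6 mitochondrial genes and 0.01 for all genes. Of the nuclear subunits of complexes III, IV and V, 1, 3 and 2 had an unadjusted p under 0.05. Of all genes 12.5% did, and 0 were called. The direction of the nuclear complex III median thus also depended on that library. Among the biogenesis regulators the count at an unadjusted p under 0.05 went from 3 to 0 without it, and among the genes that copy and transcribe mitochondrial DNA from 2 to 1. Ppargc1b was then at -0.57 ± 0.45 (log2, SE), Esrrg at -0.62 ± 0.31 and Polg2 at -0.75 ± 0.26. Of the other genes named from these lists, Uqcrfs1 was at 0.01, Cox4i2 at -0.16, Atpaf2 at 0.16, Lrpprc at -0.28 and Pde12 at 0.24. Bcs1l was at 0.51, Coa5 at 0.40, Top1mt at -0.60 and Ttc19 at -0.276. All of these were nearer to 0 than with all libraries. Further from 0 were Cox6a2 at -1.68, Atpif1 at -0.66, Fmc1 at -0.59, Cox15 at 0.54, Uqcrc1 at 0.42 and Atp5g2 at -0.27. None was called. A difference between mitochondrial and nuclear subunits was not tested.

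**Figure D5:**
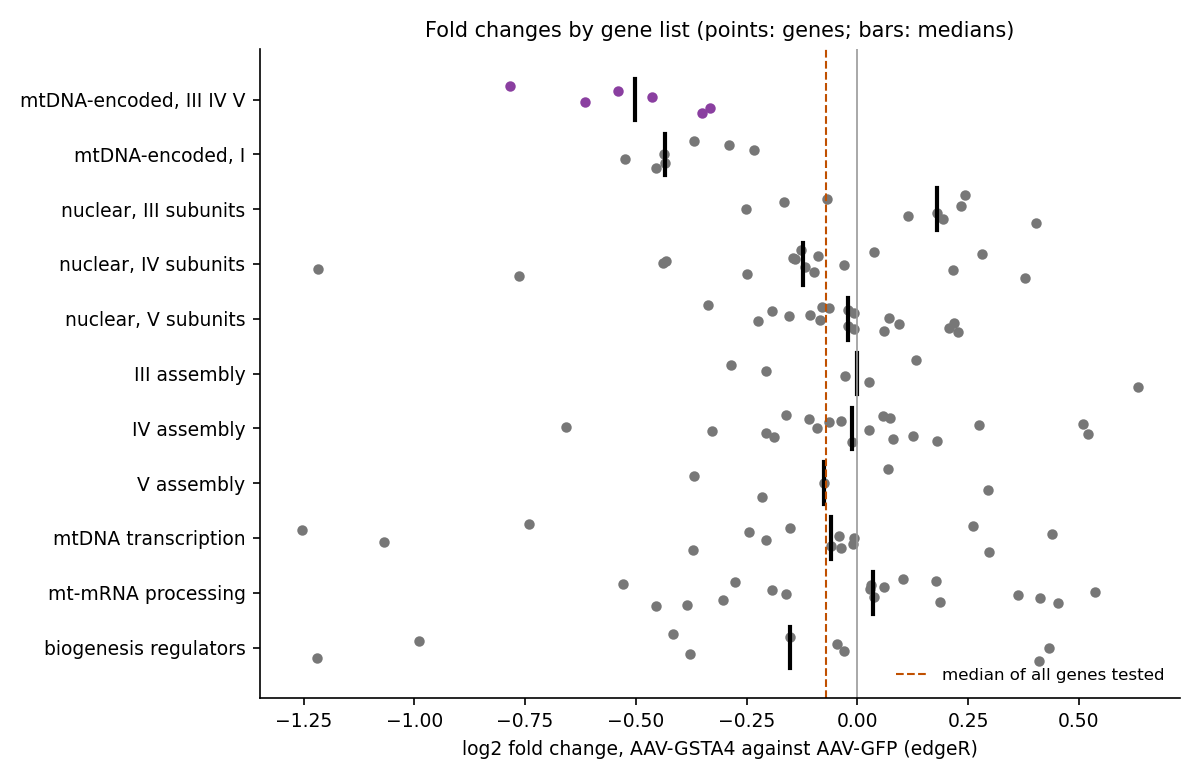
Log2 fold change (AAV-GSTA4 against AAV-GFP, edgeR) of each gene in 11 lists, with list medians as black bars and the median of all genes as a dashed line at -0.07. The 6 mitochondrial genes of complexes III to V (top, median -0.50) and the 7 of complex I (median -0.43) lie wholly below 0, while each nuclear list has genes on both sides.

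Among 4753 genes of the nucleus whose log2 CPM averaged 5 or more, those that kept the most constant ratio to the 6 genes over the 7 libraries were Ndufb1-ps, Dctn6, Polr2k, Snrpe and Tceal9. The SD of their log2 ratio to the mean of the 6 was 0.19 to 0.21, against a median of 0.62 over the 4753 genes. Their log2 fold changes were -0.45 to -0.25, and none was called. Dctn6 encodes a dynactin subunit, Polr2k a subunit shared by nuclear RNA polymerases and Snrpe a core protein of spliceosomal particles.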

How the data were processed

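The authors deposited raw read counts per gene symbol for 7 libraries; the submitters' processing notes name STAR 2.7.1a, featureCounts 1.6.2 and, for mouse, GRCm38. The annotation release, strand setting and rule for multi-mapping reads are not given in the sources used here. RNA was selected by poly(A) and amplified as full-length cDNA, per the labels' protocols, without mention of molecular identifiers. Columns were matched to samples by library name. Libraries of every pair differed by more than counting noise (chi-square per gene at least 57.5). Totals ranged from 15329181 to 28998964 counts, and a floor of 3 counts was 0.103 to 0.196 CPM.

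The test was edgeR 4.0.16 (R 4.3.3), quasi-likelihood with robust dispersions, TMM, the default filter, group only, Benjamini-Hochberg over all 15075 genes, threshold 0.05. It was also run on simulated counts, drawn gene by gene at the fitted dispersions. Those hold no library that stands apart and no shift shared by genes, so that run cannot vouch for the test on these libraries. SE is the log2 fold change over the root of F. Log2 CPM used a prior count of 2. Alternatives included DESeq2 1.42.0 and limma 3.58.1. Sequences and coordinates are from GENCODE M21; windows were 50 bases, on both strands. Members and lists were chosen with earlier results of these data known. Named genes are the members, the vector rows, the 2 smallest p-values per list and the 5 genes of most constant ratio.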

Additional observations from a re-analysis of the deposited data

How the results depend on the processing

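Over 17 alternatives, 101 of 102 fold changes of the 6 genes kept their direction and stayed short of an adjusted p of 0.05. The exception was mt-Co1 without AAV-GFP replicate 1, at 0.049 with an adjusted p of 0.971 in edgeR's test; over the 7 fits that leave out 1 library, mt-Co1 ran from -0.72 to 0.049. The smallest adjusted p over the alternatives was 0.0750, for mt-Co2 in limma-voom with quality weights, where 5 of the 6 genes and 21.8% of all genes had an unadjusted p under 0.05. Scaling by library totals, without TMM factors, moved the median of all genes from -0.07 to -0.37 and that of the 6 genes from -0.50 to -0.74, or from -0.43 to -0.37 relative to all genes; 4 of the 6 then had an unadjusted p under 0.05, against 15.9% of all genes. The count of genes called was 0 in edgeR with all libraries and group as the single term, and 166 in DESeq2, none of them among the 6; the cause was not tested. It was 0 to 1 when 1 library was left out, the single gene being hGSTA4 without AAV-GSTA4 replicate 3. The difference in summed share ran from -1.11 to -0.357 percentage points when 1 library was left out.

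A replicate block by the number in the title called 1 gene, hGSTA4, and left 849 genes at an unadjusted p under 0.05, against 1794 without it; a block by the library-name number called 1, also hGSTA4, with 1148. The 6 genes ran from -0.57 to -0.10 and from -0.82 to -0.20 under these blocks, with no call changed. Equal numbers did not deviate together: correlations were -0.089, 3.3e-05 and 0.0090 by title and -0.089, 0.015 and -0.13 by library name. So few values cannot decide whether equal numbers share more than the number, and the labels do not say that they do. Depth limits mt-Atp8 most, with counting error of up to 25.7% of its share to either side.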

Other observations

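The 6 genes made up 58.6% to 64.6% of the counts on all 13 mitochondrially encoded genes. The highest fractions were in AAV-GSTA4 replicate 2 (64.6%), AAV-GSTA4 replicate 4 (63.1%) and AAV-GFP replicate 1 (62.3%), and the other 4 libraries lay between 58.6% and 59.5%. In each library the share of the 13 genes in all counts was between 1.85% and 4.17%, lowest in AAV-GFP replicate 3 and highest in AAV-GFP replicate 1.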
